A study of Rattus norvegicus with 30 samples.

Results

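The endothelial junction and VEGF signalling genes are 10 rat genes: Cldn5, Cdh5, Pecam1, Vegfa, Flt1, Kdr, Tek, S1pr1, Adm and Nos3. They were chosen by name, from the vascular biology of the heart, with earlier results of these data known. Each was found on the array through the transcript accession printed for its probes. The brightest probe stood for a gene. All 10 were among the 26785 genes or unnamed transcripts on the array, and all 10 were among the 18333 that were bright enough to be tested.

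These genes form and control the wall of the blood vessel. Endothelial cells are held together by tight junctions (claudin-5, Cldn5), adherens junctions (VE-cadherin, Cdh5) and further adhesion molecules at the same borders (CD31, Pecam1). Vascular endothelial growth factor A (Vegfa) binds the receptor kinases Flt1 and Kdr and loosens this barrier, while the angiopoietin receptor Tie2 (Tek), the sphingosine 1-phosphate receptor S1pr1, the vasodilator peptide adrenomedullin (Adm) and endothelial nitric oxide synthase (Nos3) are known for tightening it or for relaxing the vessel. Vegfa and Adm are also made by heart muscle and other cells. The other 8 genes are best known from endothelium but are not confined to it. Pecam1, for example, is also on platelets and white blood cells.

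Transcripts were measured in left ventricle of male Sprague Dawley rats, 16 to 18 weeks old, on 30 one-colour Agilent arrays. Chow-fed rats and rats kept for 8 to 10 weeks on a high-sucrose diet, given to make them insulin resistant, each supplied 3 groups of 5 hearts, described as biological replicates. All rats were under chloral hydrate, and all hearts were cut out into ice-cold buffer. Hearts of the 2 non-perfused groups were dissected and frozen at once. The 4 perfused groups were hearts that worked outside the body for 60 min, warm and oxygenated, at a filling pressure of 15 cm H2O and an afterload of 100 cm H2O. Their buffer carried 2.5 mmol/L calcium with propionate at 2 mmol/L, acetoacetate at 1 mmol/L and DL-beta-hydroxybutyrate at 10 mmol/L as fuels, and in addition 25 mmol/L of either glucose or mannitol, a sugar alcohol that served as the osmotic control. A perfused heart thus differs from a non-perfused one in everything that happened during that time: flow, work, buffer in place of blood, and time outside the body.

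On single arrays 48.8% to 75.4% of probes were well above background. The negative control spots were noisy, with an SD above 8 intensity units, on 4 arrays: replicate 2 of the chow and replicates 1 and 5 of the sucrose non-perfused hearts, and replicate 5 of the sucrose mannitol hearts. All groups were present on each of slides 1 to 4. Slide 5 held a single array, replicate 1 of the sucrose mannitol group, which was also the only array scanned on a different day. Row 1 of the slides held every non-perfused and chow mannitol array, and row 2 every glucose array and 4 of the 5 sucrose mannitol arrays, so row and perfusion with glucose cannot be told apart in either diet. Of the sucrose mannitol arrays 1 shared row 1 with the non-perfused hearts, and the chow mannitol arrays all did. Cardiomyocyte markers were well above background on all arrays (12 of 12), and of 21 other endothelial markers 20 or 21 were. The arrays thus carried transcripts of heart muscle and endothelium. Whether every piece came from the left ventricle was not tested.

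The sequence upstream of 4 of the genes is printed here because perfusion moved 3 of them (Cldn5, Vegfa, Flt1) and left Kdr, the sister receptor of Flt1, below the threshold. Each line is 300 bases of RefSeq sequence on build GRCr8, 250 bases before to 50 bases after the transcript start, written 5′ to 3′. Capitals mark the letters CACCC or its reverse complement GGGTG, the core bound by Krüppel-like factors, and TGACGTCA, the full cAMP response element.
Cldn5, chr11:95718549-95718848, minus strand: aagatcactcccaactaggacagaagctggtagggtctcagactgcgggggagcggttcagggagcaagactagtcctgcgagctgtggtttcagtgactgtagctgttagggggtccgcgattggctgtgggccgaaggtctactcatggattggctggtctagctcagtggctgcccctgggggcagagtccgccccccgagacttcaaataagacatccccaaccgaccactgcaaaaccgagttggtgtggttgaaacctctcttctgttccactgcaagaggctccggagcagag
Vegfa, chr9:22452604-22452903, plus strand: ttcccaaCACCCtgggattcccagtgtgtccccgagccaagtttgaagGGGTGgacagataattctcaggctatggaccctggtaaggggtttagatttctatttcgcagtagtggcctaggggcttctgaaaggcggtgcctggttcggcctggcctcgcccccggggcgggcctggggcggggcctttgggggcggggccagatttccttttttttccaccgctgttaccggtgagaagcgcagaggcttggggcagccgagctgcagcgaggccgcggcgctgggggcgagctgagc
Flt1, chr12:12333180-12333479, plus strand: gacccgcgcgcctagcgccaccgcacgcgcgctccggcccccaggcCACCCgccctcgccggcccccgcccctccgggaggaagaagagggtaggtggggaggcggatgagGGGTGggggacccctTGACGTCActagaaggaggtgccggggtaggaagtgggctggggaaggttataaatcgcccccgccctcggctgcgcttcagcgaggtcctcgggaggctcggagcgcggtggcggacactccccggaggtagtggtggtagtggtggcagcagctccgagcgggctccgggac
Kdr, chr14:32571813-32572112, plus strand: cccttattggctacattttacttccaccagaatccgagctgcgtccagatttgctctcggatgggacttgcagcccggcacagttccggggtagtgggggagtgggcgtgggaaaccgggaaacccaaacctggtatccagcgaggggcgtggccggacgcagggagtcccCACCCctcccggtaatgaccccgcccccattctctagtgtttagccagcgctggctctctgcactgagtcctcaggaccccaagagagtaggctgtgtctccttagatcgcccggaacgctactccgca

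RefSeq windows were matched by symbol for 7 of the 10 genes (Vegfa has 2 windows). Cdh5, Pecam1 and Tek had none to print. In Flt1 the letters TGACGTCA began at position -124 from the start, a match that 1.83% of 33469 windows of the same length hold on either strand. No other window of the 7 genes held it. CACCC or its complement was found in the windows of Flt1 (2 matches), Vegfa (2 in each window), Nos3 (2), S1pr1 (1) and Kdr (1), and not in those of Cldn5 and Adm, against 54.9% of all windows. The GGAAG core of ETS factors occurred in 70.1% of all windows and in every window of the 7 genes but those of Cldn5 and the first of Vegfa. The hypoxia response core ACGTG (19.3% of all windows), the AP-1 letters TGANTCA (7.33%) and the CArG box (1.64%) were in none of them. These are letter matches in a short window and say nothing of binding.

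Perfusion raised 6 of the 10 genes in the comparison averaged over diets and buffers: Cldn5, Vegfa, Flt1, S1pr1, Adm and Nos3. None of the 10 was called lower. Of all genes tested, 10.0% were called higher and 12.3% lower in that comparison. The median log2 change of the 10 genes was 0.56, beside -0.04 for all genes tested. Since the 10 were chosen with earlier results of these data known, these shares and medians are descriptions and not a test. A gene was called where the adjusted p of limma was below 0.05. Claudin-5 moved most, by 3.47-fold, and the other 5 by 1.47-fold to 1.72-fold. Levels below are log2 intensities relative to the 75th percentile of the same array, so they can be compared between arrays for 1 gene but not between genes.

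The same 6 genes were called higher in chow hearts perfused with mannitol, where 4.83% of all genes were called higher, in chow hearts with glucose (5.47%) and in sucrose hearts with glucose (5.54%). In sucrose hearts with mannitol 5 of the 10 were called higher (5.53%), Adm being the exception. Medians of the 10 changes were 0.54, 0.70, 0.54 and 0.32 in that order of groups, against medians over all genes of -0.01, -0.05, -0.03 and -0.04. Values of the perfused and non-perfused groups did not overlap for 5 of the 10 genes in chow mannitol (higher without overlap in 5.00% of all genes) and in chow glucose (5.18%). They did not overlap for 6 of the 10 in sucrose mannitol (4.36%) and in sucrose glucose (4.75%). The 4 comparisons share their non-perfused hearts within a diet and are therefore not independent of each other.

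**Figure D1:**
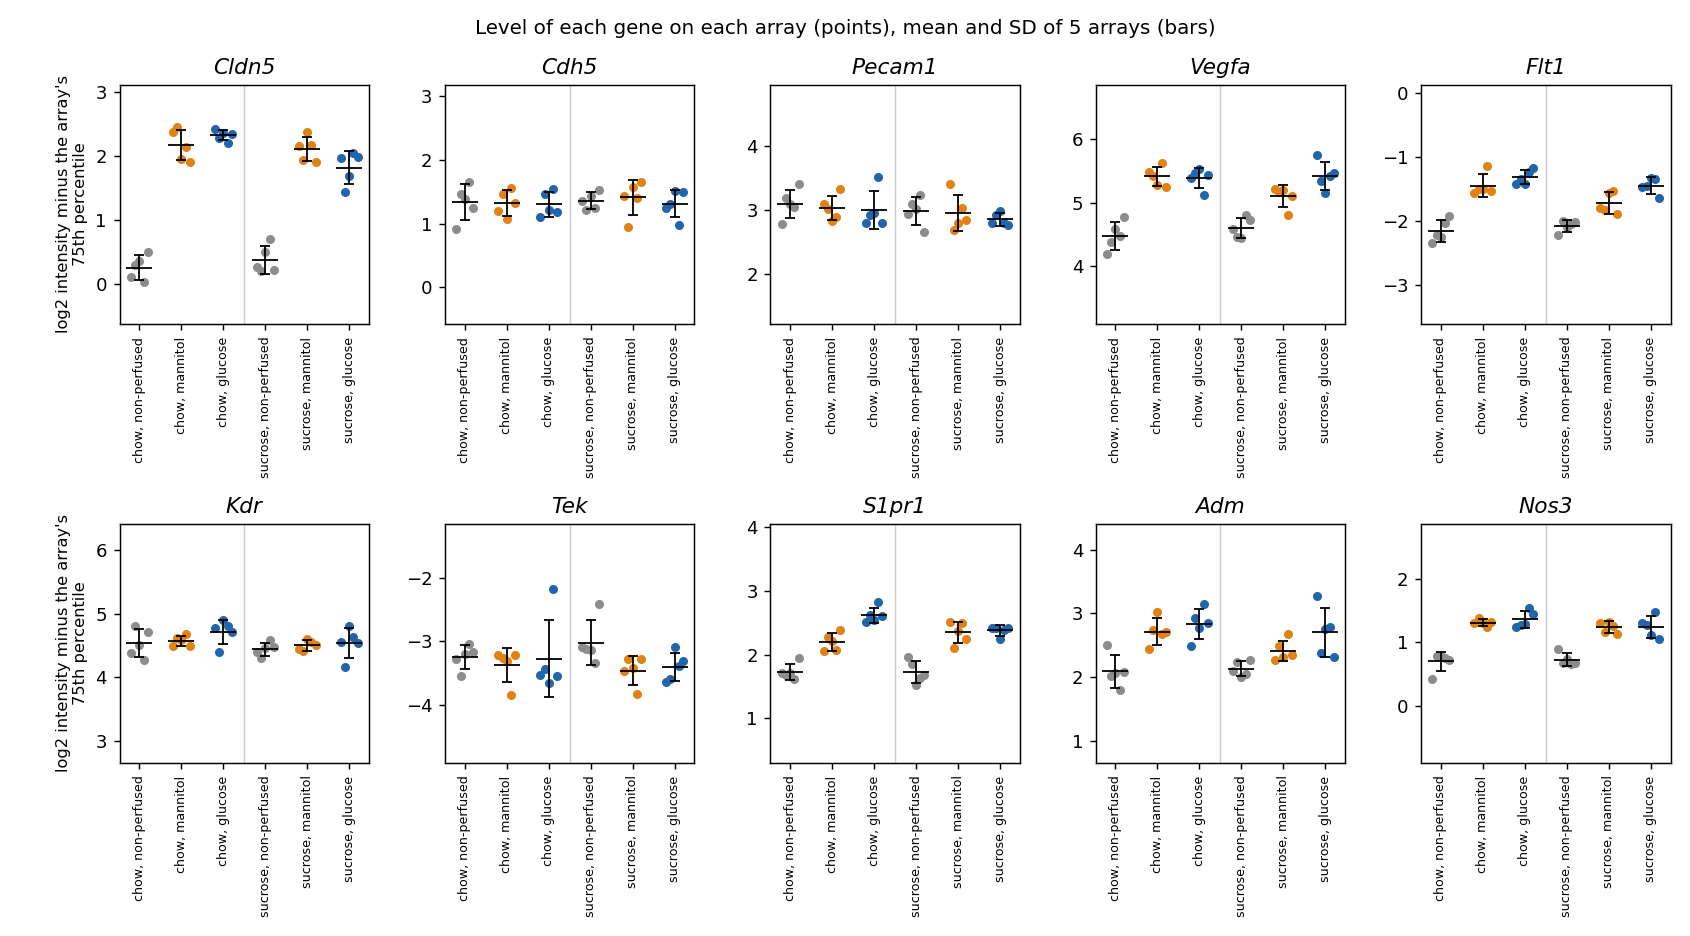
Level of each gene (log2 intensity minus the array's 75th percentile) on each of 30 arrays by diet and perfusion group; points are arrays, bars the mean and SD of 5, and every panel spans the same number of log2 units. Cldn5 stands at 0.02 to 0.70 on all non-perfused arrays and at 1.44 to 2.46 on all perfused ones. For Cdh5, Pecam1 and Kdr the groups overlap, with group means of 1.30 to 1.41, 2.85 to 3.10 and 4.44 to 4.71.

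Among the junction genes only Cldn5 was called. Claudin-5 is the membrane protein that builds the strands of endothelial tight junctions. Its level in non-perfused hearts was 0.10, 0.29, 0.36, 0.02 and 0.50 after chow and 0.26, 0.19, 0.49, 0.70 and 0.21 after sucrose. In perfused chow hearts it was 2.37, 2.46, 1.95, 2.14 and 1.91 with mannitol and 2.43, 2.29, 2.36, 2.21 and 2.34 with glucose. Sucrose hearts gave 2.15, 1.93, 2.38, 2.17 and 1.91 with mannitol and 1.97, 1.44, 1.68, 2.04 and 1.98 with glucose. The lowest perfused heart, 1 of the sucrose glucose group, was still above the highest non-perfused heart.

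The rise of Cldn5 was 3.77-fold in chow mannitol hearts (log2 1.91, SE 0.13, adjusted p 4.42e-11) and 4.21-fold in chow glucose hearts (log2 2.07, SE 0.13, adjusted p 5.79e-12). It was 3.33-fold in sucrose mannitol hearts (log2 1.74, SE 0.13, adjusted p 2.11e-10) and 2.73-fold in sucrose glucose hearts (log2 1.45, SE 0.13, adjusted p 5.61e-09). Every slide that carried both groups showed it, with differences between 1.18 and 2.44 on single slides. In pieces of whole ventricle, more endothelial cells in a sample and more RNA per cell cannot be told apart. The summed level of a marker list is the log2 of the markers' added intensities, in which the brightest markers weigh most. For 21 other endothelial markers it lay between 6.01 and 6.22 on non-perfused arrays and between 6.01 and 6.28 on perfused arrays. These ranges overlap almost fully. Taken singly, 6 of the 21 were called higher and 3 lower in the averaged comparison. Whether the share of endothelial cells changed was not tested.

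Cdh5 encodes VE-cadherin, the adhesion protein of endothelial adherens junctions. Its group means ran from 1.30 to 1.41, with SDs of 0.13 to 0.28 over 5 hearts. The averaged change was -0.01 (95% interval -0.18 to 0.16, adjusted p 0.956). Pecam1 encodes CD31, which joins neighbouring endothelial cells and also sits on platelets and leukocytes. Its group means ran from 2.85 to 3.10 and its averaged change was -0.09 (interval -0.27 to 0.09, adjusted p 0.546). Groups overlapped for both genes in all 9 comparisons of single groups.

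Blood cell transcripts fell in the same hearts. In the averaged comparison, where 12.3% of all genes were called lower, 3 of 5 platelet markers were. So were 3 of 5 neutrophil markers and 4 of 5 red cell markers. Single groups had 1 to 3 platelet, 2 to 3 neutrophil and 4 red cell markers lower, with the fewest platelet calls in sucrose mannitol hearts. The summed platelet level was 1.32 to 1.76 on non-perfused arrays and 1.02 to 1.42 on perfused ones. For neutrophils it was -1.75 to -0.89 and -3.16 to -1.72, and for red cells 8.74 to 9.43 and 2.51 to 6.27. Neutrophil genes were near background: of 7 on the array 1 to 6 were above it in non-perfused hearts and 0 to 4 in perfused hearts. What part the loss of blood had in the level of Pecam1 was not tested.

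Vegfa, the ligand, rose in all 4 perfused groups. Non-perfused hearts stood at 4.19, 4.38, 4.59, 4.48 and 4.78 after chow and at 4.58, 4.46, 4.45, 4.81 and 4.72 after sucrose. Perfused chow hearts stood at 5.48, 5.42, 5.28, 5.62 and 5.24 with mannitol and at 5.39, 5.47, 5.52, 5.12 and 5.43 with glucose. Perfused sucrose hearts stood at 5.22, 5.16, 5.19, 4.81 and 5.10 with mannitol and at 5.75, 5.34, 5.15, 5.41 and 5.46 with glucose. Chow groups were well apart, whereas the lowest sucrose mannitol heart and the highest sucrose non-perfused heart were both at 4.81 and differed only beyond the second decimal.

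The rise of Vegfa was 1.90-fold in chow mannitol (log2 0.93, SE 0.12, adjusted p 1.78e-06), 1.87-fold in chow glucose (log2 0.90, adjusted p 2.00e-06) and 1.76-fold in sucrose glucose hearts (log2 0.82, adjusted p 1.13e-05). With mannitol in sucrose hearts it was 1.41-fold (log2 0.49, SE 0.12, adjusted p 0.00479), and this call was lost with the authors' deposited values (adjusted p 0.225) and without the noisy arrays and the array alone on its slide (adjusted p 0.0847). Vegfa has 4 probes, which differ in size but not in sign. Averaged over groups the brightest gave 1.72-fold and the others 1.46-fold, 1.40-fold and 1.37-fold, with adjusted p between 1.42e-09 and 0.000282 in a fit over all probes. In sucrose mannitol hearts 2 of the 4 probes missed the threshold (adjusted p 0.218 and 0.133), and in chow mannitol hearts 1 did (adjusted p 0.180).

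**Figure D2:**
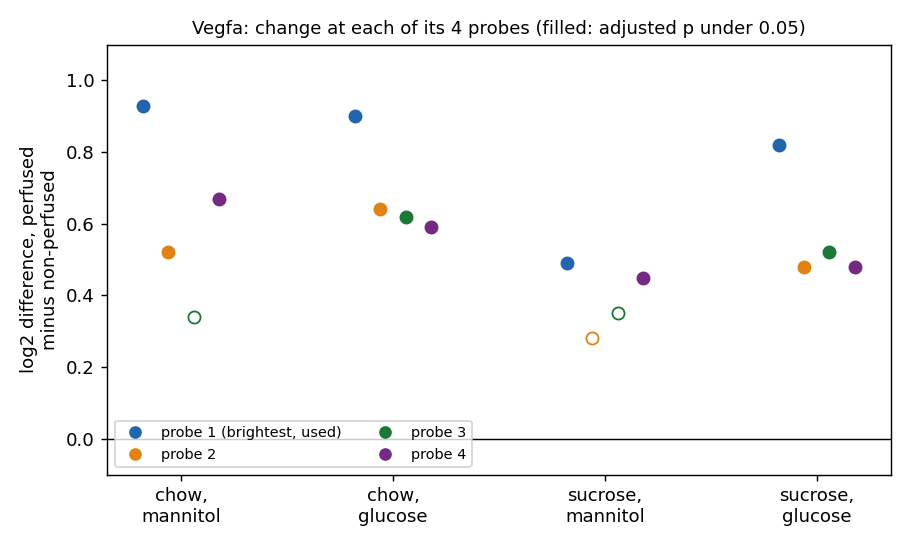
Log2 difference between perfused and non-perfused hearts at each of the 4 Vegfa probes, for each diet and buffer; filled circles passed an adjusted p of 0.05. All 16 differences are above 0, from 0.28 to 0.93, and the brightest probe gives the largest in every group.

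Flt1 encodes VEGF receptor 1, which binds Vegfa tightly but signals weakly and is also made as a soluble trap. Non-perfused hearts were at -2.35, -2.23, -2.26, -2.04 and -1.93 after chow and at -2.22, -2.00, -2.10, -2.05 and -2.02 after sucrose. Chow hearts reached -1.57, -1.50, -1.50, -1.14 and -1.53 with mannitol and -1.42, -1.34, -1.42, -1.23 and -1.18 with glucose. Sucrose hearts reached -1.80, -1.83, -1.56, -1.53 and -1.89 with mannitol and -1.47, -1.46, -1.33, -1.34 and -1.65 with glucose. No perfused heart overlapped the non-perfused hearts of its diet, and the sucrose mannitol hearts came closest.

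The rise of Flt1 was 1.64-fold in chow mannitol (log2 0.71, SE 0.09, adjusted p 4.50e-06), 1.80-fold in chow glucose (log2 0.84, adjusted p 2.42e-07) and 1.54-fold in sucrose glucose hearts (log2 0.63, adjusted p 2.97e-05). In sucrose mannitol hearts it was 1.28-fold (log2 0.36, SE 0.09, adjusted p 0.0131). That last call did not survive 5 of the 15 alternative settings, with adjusted p of 0.0545 to 0.547 in those, while its direction held in all of them. The change had the same sign on 4 of 4 slides in each comparison.

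Kdr encodes VEGF receptor 2, the main signalling receptor of endothelium. Its level in non-perfused hearts was 4.38, 4.80, 4.51, 4.27 and 4.71 after chow and 4.40, 4.30, 4.46, 4.58 and 4.47 after sucrose. Perfused chow hearts had 4.49, 4.62, 4.58, 4.68 and 4.49 with mannitol and 4.77, 4.40, 4.90, 4.80 and 4.71 with glucose. Perfused sucrose hearts had 4.44, 4.41, 4.60, 4.55 and 4.50 with mannitol and 4.55, 4.17, 4.80, 4.63 and 4.54 with glucose. All groups overlapped. The averaged change was 0.09 on the log2 scale (interval -0.04 to 0.22, adjusted p 0.366), against an interval of 0.52 to 0.75 for Flt1. With normexp background correction the averaged change of Kdr was 0.17 and passed the threshold (adjusted p 0.0441).

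Tek encodes Tie2, the receptor through which angiopoietin-1 steadies the endothelium. It was not well above background on 1 of 30 arrays, and its values ran from -3.84 to -2.18. Non-perfused hearts averaged -3.25 ± 0.19 (SD, n = 5) after chow and -3.02 ± 0.35 after sucrose, and the perfused groups -3.27 to -3.46. The averaged change was -0.24 (interval -0.51 to 0.03, adjusted p 0.202). A single chow glucose heart, replicate 4, stood at -2.18, far above the other 4 (-3.65 to -3.44). Without it the averaged change was -0.31 (adjusted p 0.0176), and with array weights it was -0.29 (adjusted p 0.0459).

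S1pr1, the receptor through which blood-borne sphingosine 1-phosphate tightens endothelial contacts, rose in all 4 groups. Non-perfused hearts had 1.72, 1.68, 1.71, 1.62 and 1.95 after chow and 1.97, 1.85, 1.53, 1.64 and 1.68 after sucrose. Perfused chow hearts had 2.06, 2.28, 2.22, 2.07 and 2.39 with mannitol and 2.51, 2.62, 2.55, 2.83 and 2.60 with glucose. Perfused sucrose hearts had 2.51, 2.11, 2.37, 2.50 and 2.25 with mannitol and 2.42, 2.42, 2.25, 2.39 and 2.42 with glucose. Chow hearts formed 3 levels without overlap: non-perfused, mannitol, glucose. The change was 1.38-fold in chow mannitol (log2 0.47, SE 0.09, adjusted p 0.000817) and 1.85-fold in chow glucose (log2 0.89, adjusted p 4.95e-08). In sucrose hearts it was 1.53-fold with mannitol (log2 0.61, adjusted p 2.35e-05) and 1.57-fold with glucose (log2 0.65, adjusted p 1.11e-05).

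Adm encodes adrenomedullin, a peptide that widens vessels and steadies the endothelial barrier. Its level in non-perfused hearts was 2.51, 2.01, 2.06, 1.79 and 2.08 after chow and 2.09, 2.24, 2.00, 2.04 and 2.27 after sucrose. Chow hearts had 2.44, 2.73, 3.02, 2.67 and 2.71 with mannitol and 2.49, 2.93, 2.77, 3.14 and 2.85 with glucose. Sucrose hearts had 2.27, 2.48, 2.31, 2.67 and 2.34 with mannitol and 3.27, 2.37, 2.75, 2.78 and 2.32 with glucose. The highest chow non-perfused heart reached into both perfused chow groups, and the sucrose groups barely parted.

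Adm rose 1.54-fold in chow mannitol (log2 0.62, SE 0.15, adjusted p 0.00783) and 1.68-fold in chow glucose hearts (log2 0.74, SE 0.15, adjusted p 0.00119). In sucrose glucose hearts it rose 1.49-fold (log2 0.57, SE 0.15, adjusted p 0.0152), a call that rests on replicate 1 at 3.27. Without that heart the change was 0.43 (adjusted p 0.0655), and the call was also lost in 4 of the 15 alternative settings (adjusted p 0.0518 to 0.0882). In sucrose mannitol hearts the difference was 0.29 (SE 0.15, interval -0.02 to 0.60) and was not called (adjusted p 0.263). With the authors' deposited values the chow mannitol call of Adm was lost (adjusted p 0.0959).

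Nos3, whose product makes the vasodilator nitric oxide in endothelium, had the tightest values. Non-perfused hearts had 0.43, 0.79, 0.79, 0.75 and 0.72 after chow and 0.90, 0.68, 0.74, 0.66 and 0.67 after sucrose. Perfused chow hearts had 1.30, 1.38, 1.31, 1.24 and 1.32 with mannitol and 1.24, 1.27, 1.29, 1.54 and 1.44 with glucose. Perfused sucrose hearts had 1.31, 1.16, 1.32, 1.26 and 1.13 with mannitol and 1.31, 1.27, 1.11, 1.47 and 1.05 with glucose. All 20 perfused hearts were above all 10 non-perfused hearts. The rise was 1.53-fold and 1.58-fold in chow hearts with mannitol and glucose (adjusted p 4.64e-06 and 1.10e-06) and 1.42-fold and 1.43-fold in sucrose hearts (adjusted p 7.94e-05 and 6.23e-05). Its SE was 0.08 on the log2 scale in each.

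**Figure D3:**
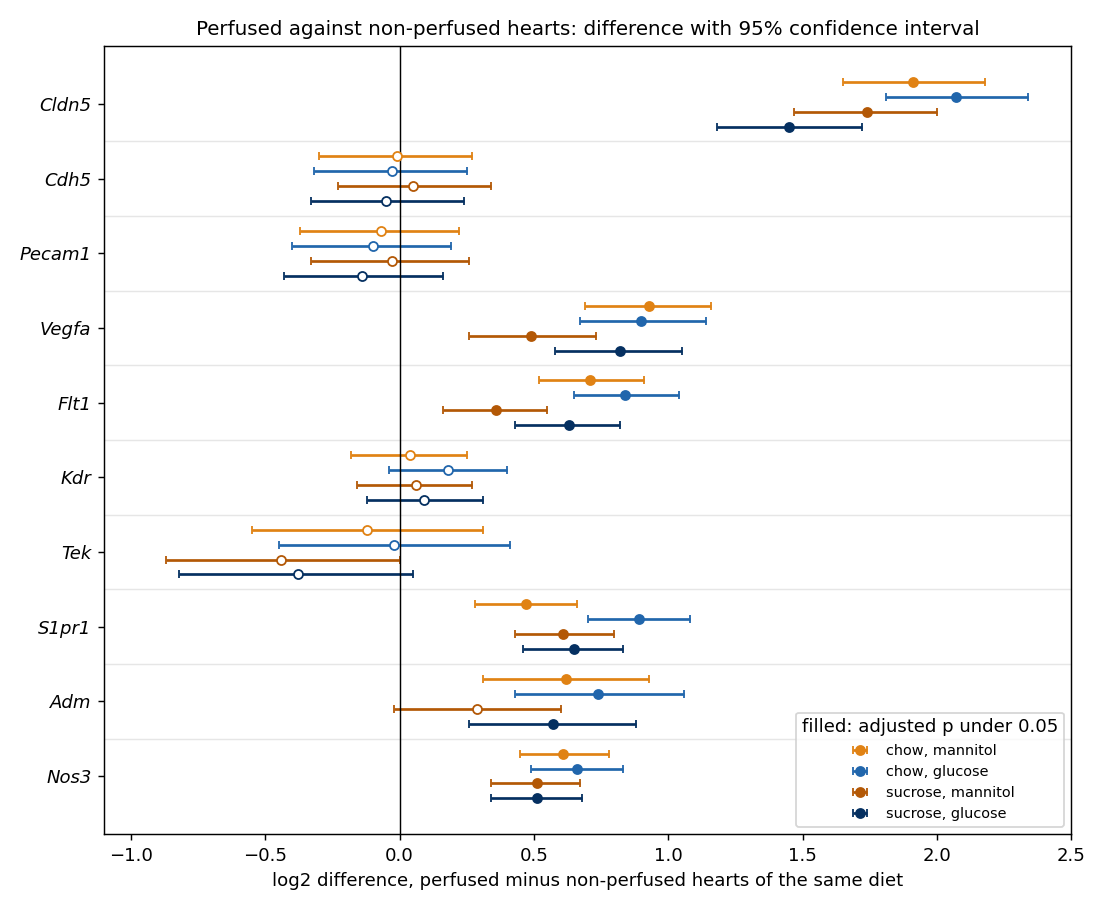
Log2 difference between perfused and non-perfused hearts of the same diet with its 95% confidence interval, for 10 genes in 4 comparisons; filled circles passed an adjusted p of 0.05. Cldn5 lies between 1.45 and 2.07 and the other risers between 0.29 and 0.93, with Cdh5, Pecam1, Kdr and Tek around 0 or below.

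Glucose in the buffer, compared with mannitol, was the next question. None of the 10 genes was called in chow hearts or in sucrose hearts. Of all genes tested, 0% were called in chow hearts and 0.00545% in sucrose hearts, which is 1 gene. At an unadjusted p under 0.05 in limma, 1 of the 10 (S1pr1) differed in chow hearts and 3 (Cldn5, Flt1, Vegfa) in sucrose hearts, beside 3.90% and 5.06% of all genes. The S1pr1 values listed above did not overlap between the chow glucose and chow mannitol hearts, a split in this direction that 0.322% of all genes showed. The difference was 0.42 (interval 0.23 to 0.61, adjusted p 0.999), and it had the same sign on 4 of 4 slides. The chow glucose arrays were in row 2 and the chow mannitol arrays in row 1, so that row and buffer cannot be told apart here. In sucrose hearts S1pr1 differed by 0.03 (interval -0.16 to 0.22). The interaction of diet and glucose for S1pr1 was -0.39 (interval -0.65 to -0.12) with an adjusted p of 0.927.

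In sucrose hearts the buffers differed by 0.33 for Vegfa (interval 0.09 to 0.56), by 0.27 for Flt1 (0.08 to 0.47) and by -0.29 for Cldn5 (-0.55 to -0.02), each with an adjusted p of 0.970 and with overlapping groups. For the other 6 genes the interval of the difference included 0 in both diets. The widest of these intervals belonged to Tek, -0.38 to 0.49, and the narrowest to Nos3, -0.16 to 0.17 in sucrose hearts.

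Diet was compared within each state. None of the 10 genes was called in non-perfused, mannitol or glucose hearts, against 0%, 0.00545% and 0% of all genes. At an unadjusted p under 0.05 in limma the counts were 0, 2 (Flt1, Vegfa) and 2 (Cldn5, S1pr1) of the 10, and 3.34%, 7.94% and 4.39% of all genes. In non-perfused hearts the largest differences were 0.23 for Tek (interval -0.21 to 0.66), 0.12 for Cldn5 and for Vegfa, and -0.12 for Pecam1.

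With mannitol, Vegfa was lower in sucrose than in chow hearts by a log2 difference of -0.31 (interval -0.55 to -0.07, adjusted p 0.482) without overlap of the groups, as were 1.31% of all genes. Flt1 differed by -0.27 (interval -0.47 to -0.08, adjusted p 0.459) with overlap. These 2 groups lay mostly in different rows of the slides. With glucose, Cldn5 differed by -0.50 (interval -0.77 to -0.24, adjusted p 0.850) and S1pr1 by -0.24 (interval -0.43 to -0.06, adjusted p 0.999), both without overlap, as were 0.338% of all genes. Both glucose groups lay in the same row. The interaction of diet and perfusion was called for none of the 10 genes (0% of all genes). By unadjusted p it had Cldn5 at -0.40 (interval -0.73 to -0.07) and Flt1 at -0.29 (-0.53 to -0.05), while that of diet and glucose had Cldn5 at -0.45, Vegfa at 0.35 and S1pr1 at -0.39. None of the 10 was called in the second interaction either (0% of all genes). In limma 3.80% and 5.01% of all genes had an unadjusted p under 0.05 in these interactions.

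**Figure D4:**
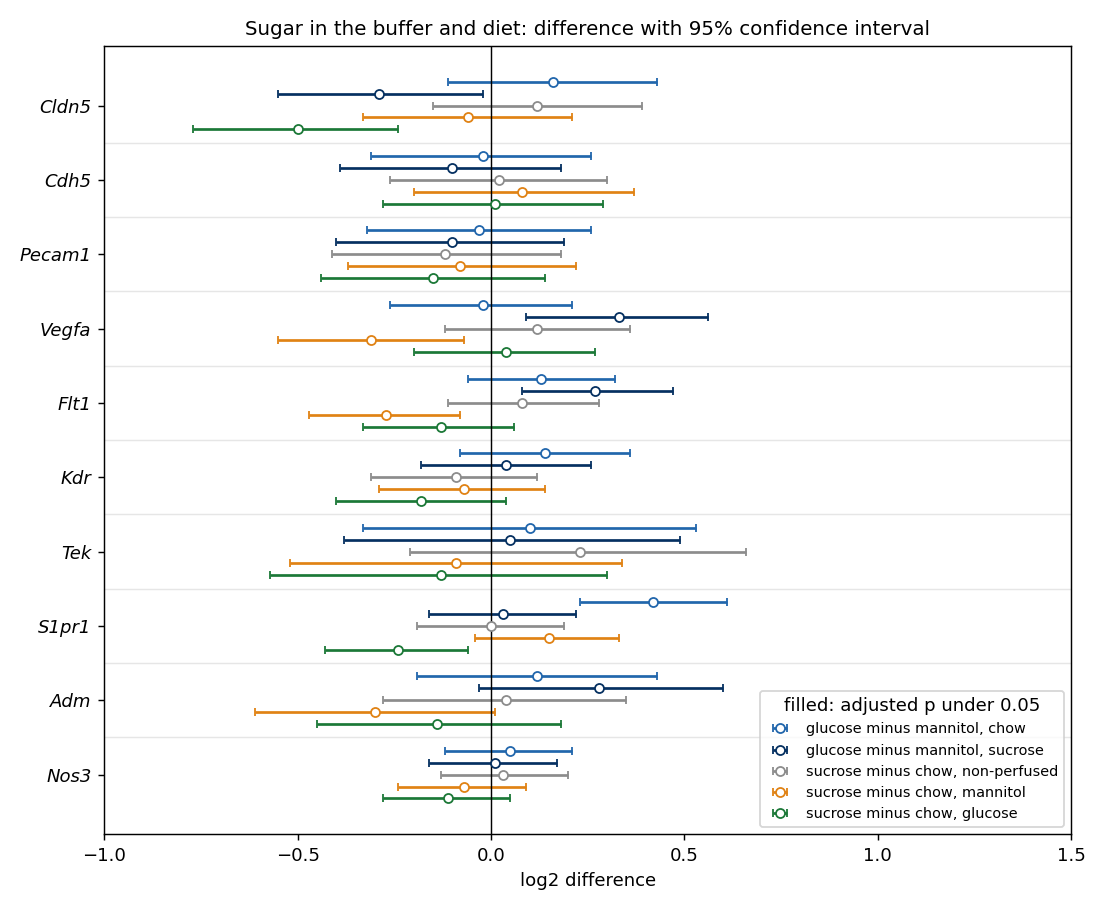
Log2 differences between glucose and mannitol buffer and between sucrose and chow diet with their 95% confidence intervals, for 10 genes in 5 comparisons. All circles are open, since none passed an adjusted p of 0.05; the differences farthest from 0 are -0.50 for Cldn5 (sucrose minus chow, glucose) and 0.42 for S1pr1 (glucose minus mannitol, chow).

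Among hearts of 1 group the 10 genes varied together only weakly. With each group's mean subtracted, the Pearson correlation over 30 arrays was 0.47 for Cldn5 and Vegfa, 0.49 for Cldn5 and Kdr and 0.51 for Pecam1 and S1pr1, the strongest 3 of 45 pairs. With slide means subtracted as well these were 0.43, 0.49 and 0.53. Cdh5 and Flt1 then went from 0.25 to 0.49, so the ranking depends on the slides. All arrays share the same scaling and 5 slides, so these are descriptions only. The step between non-perfused and perfused hearts sets most of any likeness in level. The genes whose level over the 30 arrays was most like Cldn5 were Ier2 (0.972), Ifrd1 (0.971) and Epha2 (0.971). For Vegfa they were Ccl3 (0.918), Cxcl1 (0.918) and Btg2 (0.915), and for Kdr only Klri2, Acot2 (both 0.642) and Acot7 (0.638). With group means subtracted, they were Adamts9 (0.651) and Nkd2 (0.626) for Cldn5, Pfkm (0.754), Vwa7 and Rpl37l1 for Vegfa, and Cdh23 (0.691), Pln and Esm1 for Kdr.

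The partners of these genes were followed in lists drawn up by role, with earlier results of these data known. The averaged comparison was used, where 22.3% of all genes were called in either direction. Of 21 other junction genes 8 were called higher and 2 lower, with a median change of 0.04. Gja4, a gap junction connexin of arterial endothelium, rose 1.68-fold, and Gja5, a connexin of arterial endothelium and of the conduction system, fell 2.47-fold. The adhesion protein Nectin2 rose 1.80-fold and Rasip1, which couples small GTPases to junction tension, 1.46-fold. Beta-catenin (Ctnnb1) and p120-catenin (Ctnnd1), which bind the tail of VE-cadherin, rose by 0.23 and 0.25 on the log2 scale. Gja1, the main connexin of ventricular muscle, fell by 0.23. With the authors' deposited values Ctnnb1, Ctnnd1 and Gja1 were not called (adjusted p 0.66, 0.416 and 0.597).

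Of 17 other VEGF ligands, receptors and signal carriers 3 were called higher and 1 lower (median 0.01). That share is close to the 22.3% of all genes called in either direction. Placental growth factor (Pgf), a ligand of Flt1 and not of Kdr, rose 2.37-fold (log2 1.25, SE 0.12, adjusted p 9.13e-09). Rcan1, a calcineurin regulator induced by VEGF, rose 1.37-fold and the ERK phosphatase Dusp5 1.44-fold, while focal adhesion kinase (Ptk2) fell 1.16-fold. Of 4 other angiopoietin and Tie genes Angpt1, the ligand of Tie2, fell 1.61-fold (adjusted p 0.000267) and Angptl2 rose 1.33-fold. With the deposited values the calls of Ptk2 (adjusted p 0.193) and Angptl2 (0.142) were lost.

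Of 9 other sphingosine 1-phosphate genes 2 rose, the receptor S1pr3 (1.38-fold) and the kinase Sphk1 that makes the lipid (2.07-fold, log2 SE 0.34), and the receptor S1pr5 fell 1.70-fold. S1pr5 was dim, well above background in 2 of 5 chow non-perfused hearts. With the deposited values neither S1pr3 (adjusted p 0.0685) nor S1pr5 (0.176) was called. Of 9 other adrenomedullin genes 3 fell: its receptor Calcrl (1.37-fold), the enzyme Pam that amidates the peptide (1.29-fold) and the receptor partner Ramp1 (1.23-fold). With the deposited values 0 of the 9 were called lower (adjusted p 0.143 for Calcrl and Pam and 0.54 for Ramp1). Ramp1 was not called with normexp either (adjusted p 0.138), nor Pam without the noisy arrays (0.104). The atypical receptor Ackr3, which takes up adrenomedullin, rose 1.53-fold. On the log2 scale the ligand Adm changed by 0.56 and its receptor Calcrl by -0.46.

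Of 13 other nitric oxide genes 2 were higher and 2 lower. Gch1, the first enzyme in making tetrahydrobiopterin, the cofactor of Nos3, rose 2.92-fold (log2 1.54, SE 0.10, adjusted p 1.33e-12), and the chaperone Hsp90aa1 1.35-fold. Caveolin-1 (Cav1), which holds Nos3 inactive, fell 1.14-fold, and Ddah1, which clears inhibitors of nitric oxide synthases, 1.20-fold. Neither fall was called after quantile normalization, with normexp or with the deposited values (adjusted p 0.062 to 0.398 for Cav1 and 0.0757 to 0.512 for Ddah1), and with the deposited values Hsp90aa1 had an adjusted p of 0.0567.

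Of 21 endothelial genes known to respond to VEGF or to flow 15 were called higher and 1 lower, with a median of 0.68. In the 4 comparisons of single groups 11 to 13 of 21 were higher. The flow-responsive factors Klf2 and Klf4 rose 2.64-fold and 4.24-fold, the adhesion molecule Icam1 5.39-fold and the matrix protein Ccn1 11.8-fold. The apelin receptor (Aplnr) fell by 0.74 on the log2 scale. Many of these genes are also expressed outside endothelium. Of 23 HIF target genes, which respond to low oxygen, 5 were higher and 2 lower (median 0.02). Among them the lactate exporter Slc16a3 rose 1.46-fold and hexokinase 2 (Hk2) 1.17-fold, whereas the glycolytic enzyme Pgk1 fell 1.14-fold. Neither Hk2 nor Pgk1 was called with normexp (adjusted p 0.064 and 0.201) or with the deposited values (0.461 and 0.589).

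Markers of the cells a piece of ventricle can hold were counted the same way. Of 21 other endothelial markers 6 were higher and 3 lower (median 0.04): Mcam rose 1.51-fold and Fli1 1.21-fold, Clec14a fell 1.33-fold and Podxl 1.30-fold. Of the 12 cardiomyocyte markers the smallest adjusted p in limma was that of Tnni3 (0.0892, log2 change -0.13). Fibroblast markers were higher in 3 of 8 (Lum, Tcf21, Dcn), smooth muscle and pericyte markers in 1 of 10 (Cnn1), and macrophage markers in 5 of 9, while those of endocardium and lymphatic vessels had 1 higher (Lyve1) and 1 lower (Npr3) of 7. Summed levels were 4.12 to 5.02 for macrophages on non-perfused arrays and 4.43 to 4.94 on perfused ones, and 6.41 to 6.85 and 6.46 to 6.96 for fibroblasts. What part these cells had in the 6 rises was not tested.

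**Figure D5:**
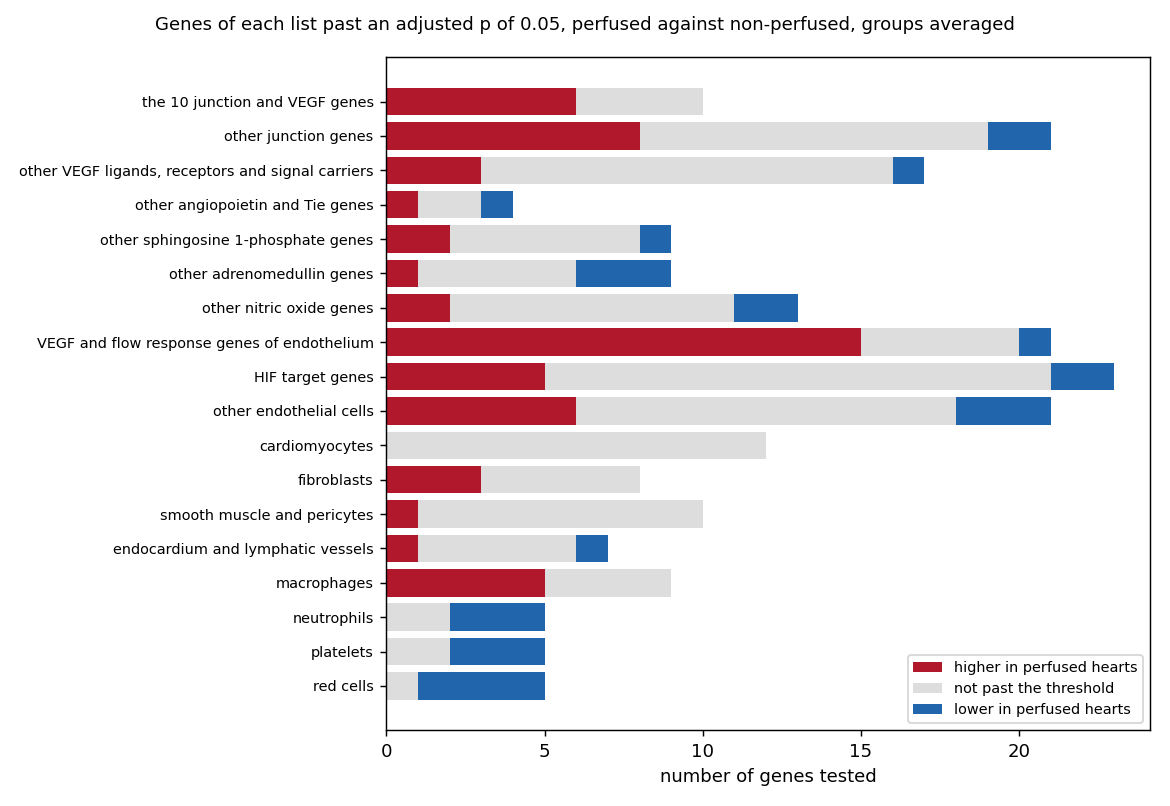
Number of genes tested in each list (bar length, x axis), split into those called higher in perfused hearts, not called, and called lower in the comparison averaged over diets and buffers (adjusted p under 0.05). The VEGF and flow response list has 15 of 21 higher, the 10 junction and VEGF genes 6 of 10, and blood cell markers are only lower or not called.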

How the data were processed

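The sample titles list 1 array for each replicate heart. Per the file headers, Agilent Feature Extraction subtracted background and detrended within each array, which gives the processed intensity used here. The headers name version 11.0.1.1, the submitters' processing notes 10.3. The deposited log2 values of the same arrays, with array medians of 7.23 to 7.24, served as an alternative, and how they were scaled between arrays is not known.

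Spots of a probe were averaged without outlier spots and put on the log2 scale relative to the 75th percentile of their array. Probes were named by transcript accession (18355 of 30367), and the brightest stood for a gene. A gene needed a signal well above background in 4 or more of the 5 hearts of some group to be tested, and 18333 did. limma 3.58.1 in R 4.3.3, with jsonlite 2.0.0 and data.table (version 1.17.8), was fitted to 6 group means, and p-values of 12 comparisons were adjusted by Benjamini-Hochberg over all tested genes. The number of arrays, 5 a group, limits the precision. The procedure was checked on simulated arrays that varied independently of each other. Real arrays of the same slide were alike, and the check does not cover that.

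Members, lists and comparisons were chosen with earlier results of these data known. All 10 members are named. Of every other list, at most 4 called genes with the smallest adjusted p are named, and a few further genes of those lists (Ctnnb1, Ctnnd1, Gja1, Aplnr) were picked after their values were seen. The genes most like Cldn5, Vegfa and Kdr are the 3 highest correlations. Some genes that these rules name are not reported here. Replicate numbers were not treated as pairs in the main fit: residuals correlated at -0.037 for the same number, 0.01 for others and 0.204 within a slide. Such means show no strong shared deviation by number and cannot tell whether hearts were paired. Alternatives covered scaling, background, filters, probe choice, slide and replicate blocks, weights, groups fitted and leaving out arrays.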

Additional observations from a re-analysis of the deposited data

Results flagged for a closer look

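In 60 sets of 5 hearts (10 genes in 6 groups) the gap between the highest or lowest heart and its neighbour was set against the range of the group. In 7 sets the ratio passed the limit of 0.71, and chance alone passes it in about 1 of 20. Tek accounts for 3 of them: chow glucose replicate 4 at -2.18 against -3.44 for the next (ratio 0.859), chow mannitol replicate 4 at -3.84 against -3.31 (0.845) and sucrose non-perfused replicate 5 at -2.41 against -3.09 (0.729). The last of these is 1 of the arrays with noisy control spots.

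Chow glucose replicate 4 was also the high heart for Pecam1, at 3.52 against 2.95 (0.784). Flt1 was high in chow mannitol replicate 4, the array that was low for Tek, at -1.14 against -1.50 (0.828). S1pr1 was low in sucrose glucose replicate 3, at 2.25 against 2.39 (0.8), although that whole group spans a small range. Nos3 was low in chow non-perfused replicate 1, at 0.43 against 0.72 (0.809).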

How the results depend on the processing

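The 29 called changes of the 10 genes were recomputed under 15 other settings and without each of the 30 arrays, where the setting could be fitted (using only the compared groups changes nothing in comparisons that use all 6). Of 1299 such values 1286 stayed called, 13 lost the call and 0 changed sign. Calls in sucrose mannitol hearts numbered 3 instead of 5 with the authors' deposited values, and 3 without the 4 arrays of noisy control spots and the array alone on its slide. Leaving out noisy arrays was chosen after seeing the data. In that last setting Flt1 (adjusted p 0.0545) and Vegfa (0.0847) were lost. Without the noisy arrays alone, Flt1 in sucrose mannitol (0.0565) and Adm in sucrose glucose hearts (0.0577) were lost. Leaving out 1 array gave 5 to 6 calls in sucrose glucose hearts, 6 to 7 in the averaged comparison, 5 in sucrose mannitol hearts, 6 in each chow comparison and 0 in the others. With replicate number as a block the calls were 6, 6, 5 and 6 in the 4 perfused groups and 0 in all comparisons of buffer or diet.

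The deposited values called fewer genes of the whole array: 361, 421, 413, 447 and 1143 in chow mannitol, chow glucose, sucrose mannitol, sucrose glucose and the averaged comparison, against 1556, 1742, 2054, 1592 and 4095. Of those calls 86.1%, 72.0%, 88.9%, 91.7% and 74.5% were higher, against 56.9%, 57.5%, 49.4%, 63.8% and 44.9%. Normexp with quantile normalization called 972, 1135, 1029, 974 and 2750, with 64.2% higher in sucrose mannitol hearts. The deposited values moved the median of all genes by 0.106 in sucrose glucose hearts, by -0.139 between chow buffers, by -0.116 between non-perfused diets and by 0.123 and 0.171 in the interactions.

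In the averaged comparison the VEGF and flow response list had 13 to 15 of 21 higher under 3 other scalings, the deposited values and without noisy arrays. The other junction list fell to 5 of 21 with normexp and 3 with deposited values, HIF targets to 2 of 23 in both, macrophages to 2 of 9 in both (3 of 9 in the other settings), and other endothelial markers to 1 of 21 with deposited values. The cause of these losses was not tested. Of the list genes named in the text, Cav1, Ddah1, Gja1 and Pgk1 were not called after quantile normalization (adjusted p 0.0904, 0.0757, 0.112 and 0.292), and none was lost when arrays were scaled to the median. Normexp lost Cav1 (0.062), Ctnnb1 (0.11), Ddah1 (0.206), Fli1 (0.058), Gja1 (0.215), Hk2 (0.064), Lyve1 (0.0729), Npr3 (0.0663), Pgk1 (0.201), Ramp1 (0.138), S1pr5 (0.122) and Sphk1 (0.168). Without the noisy arrays Ctnnd1 (0.0526), Dusp5 (0.113), Gja1 (0.105), Lyve1 (0.0953), Pam (0.104), Pgk1 (0.299) and S1pr5 (0.215) were lost. The deposited values lost Angptl2 (0.142), Calcrl (0.143), Cav1 (0.398), Cnn1 (0.127), Ctnnb1 (0.66), Ctnnd1 (0.416), Ddah1 (0.512), Fli1 (0.127), Gja1 (0.597), Hk2 (0.461), Hsp90aa1 (0.0567), Lyve1 (0.237), Npr3 (0.328), Pam (0.143), Pgk1 (0.589), Ptk2 (0.193), Ramp1 (0.54), S1pr3 (0.0685) and S1pr5 (0.176). All of these kept their sign.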
